A study of Mus musculus with 6 samples.

Results

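The genes described here are 9 genes of the Hedgehog signalling pathway in mouse pancreatic tumours: the ligands Shh and Ihh, the receptor Ptch1, the ligand-binding proteins Hhip and Gas1, the signal transducer Smo, and the transcription factors Gli1, Gli2 and Gli3. They were chosen by name as pathway genes, with earlier results of these data known. Each was read from the probe sets that the platform annotation assigns to that gene alone, which gave 22 probe sets for the 9 genes, of 45037 probe sets and 18201 genes measured. Where a gene had several probe sets, the one with the highest mean over the 6 arrays stood for it, and the others are given beside it.

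Total RNA came from pancreatic tumour cells of C57BL/6 mice at 11 weeks of age, and each of the 6 samples was hybridised to 1 Affymetrix array. All 6 samples carried the same tumour alleles, which the labels write as KeasG12D/+, p53f/f and ptf1a-Cre, so that the Cre recombinase was named for the Ptf1a locus of the pancreatic lineage. The wild-type group (3 samples, labelled wt) differed from the Msi1-null group (3 samples, labelled Msi1 -/-) only in Msi1, as far as the labels tell. The comparison asked whether RNA levels differ between tumours with and without Msi1, which encodes an RNA-binding protein of stem and progenitor cells. Whether the 6 samples stand for 6 animals is not clear from the labels, and every p-value below therefore refers to the spread over these samples, part of which may be technical.

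Hedgehog ligands are secreted, lipid-modified proteins. In the absence of ligand the receptor Ptch1 holds Smo inactive, and Gli2 and Gli3 are processed towards repressor forms at the primary cilium. Ligand binding releases Smo, Gli2 and Gli3 then act as activators, and transcription of Gli1, Ptch1 and Hhip goes up, so that these 3 genes serve as readouts of the pathway. In pancreatic ductal adenocarcinoma the tumour epithelium is known to secrete Shh, and fibroblasts of the stroma are known to respond to it. In RNA of whole tumour preparations, fewer cells of a type and less RNA per cell cannot be told apart.

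The labelled cell type was set against marker genes. All 9 measured markers of duct-type tumour epithelium read above array background in all 6 arrays, with Krt8 and Krt18, keratins of simple epithelia, the brightest. Array background, set for each array at the 95th percentile over 86 olfactory, vomeronasal and taste receptor probe sets, lay between 160.8 and 186 in the 6 arrays. The preparations also held RNA of other cells, since all 10 fibroblast markers, all 8 measured acinar, all 8 macrophage and all 8 endothelial markers read above background in every array. The 3 Msi1 probe sets read above background in 2 of 18 readings, 1 in each genotype, and at the brightest of them the log2 difference between Msi1-null and wild-type means was -0.29 ± 0.22 (SE). Since it is not known which part of the gene was deleted, these readings are no check of the genotypes. The labels give no sex, and the female-specific RNA Xist read 6226 in wild-type replicate 3 against 131 to 387 in the other 5 arrays. Over all 45037 probe sets 0 had an adjusted p below 0.05 (limma, Benjamini-Hochberg), the smallest adjusted p was 0.9997, and 1355 had an unadjusted p under 0.05.

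Between the genotypes, none of the 9 Hedgehog genes passed the test. Of the 9, 6 had lower and 3 had higher means in Msi1-null arrays, with a median log2 difference of -0.11 against 0.0006 over all 18201 genes. They ran from -0.54 for Shh to 0.30 for Gas1. Of the members 0 of 9 were called at an adjusted p under 0.05, where the share over all genes was 0%. An unadjusted p under 0.05 was reached by 0 of the 9 genes, against 3.45% of all genes. The groups overlapped for all 9 genes, and at all 22 probe sets, while 8.29% of all genes and 7.79% of all probe sets had groups without overlap. The 95% interval of the log2 difference held 0 at each of the 22 probe sets. The interval of each gene, given with its values, is not adjusted for the number of probe sets tested. It does not bound the difference that 3 arrays per genotype could miss, least of all for readings at background.

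**Figure D1:**
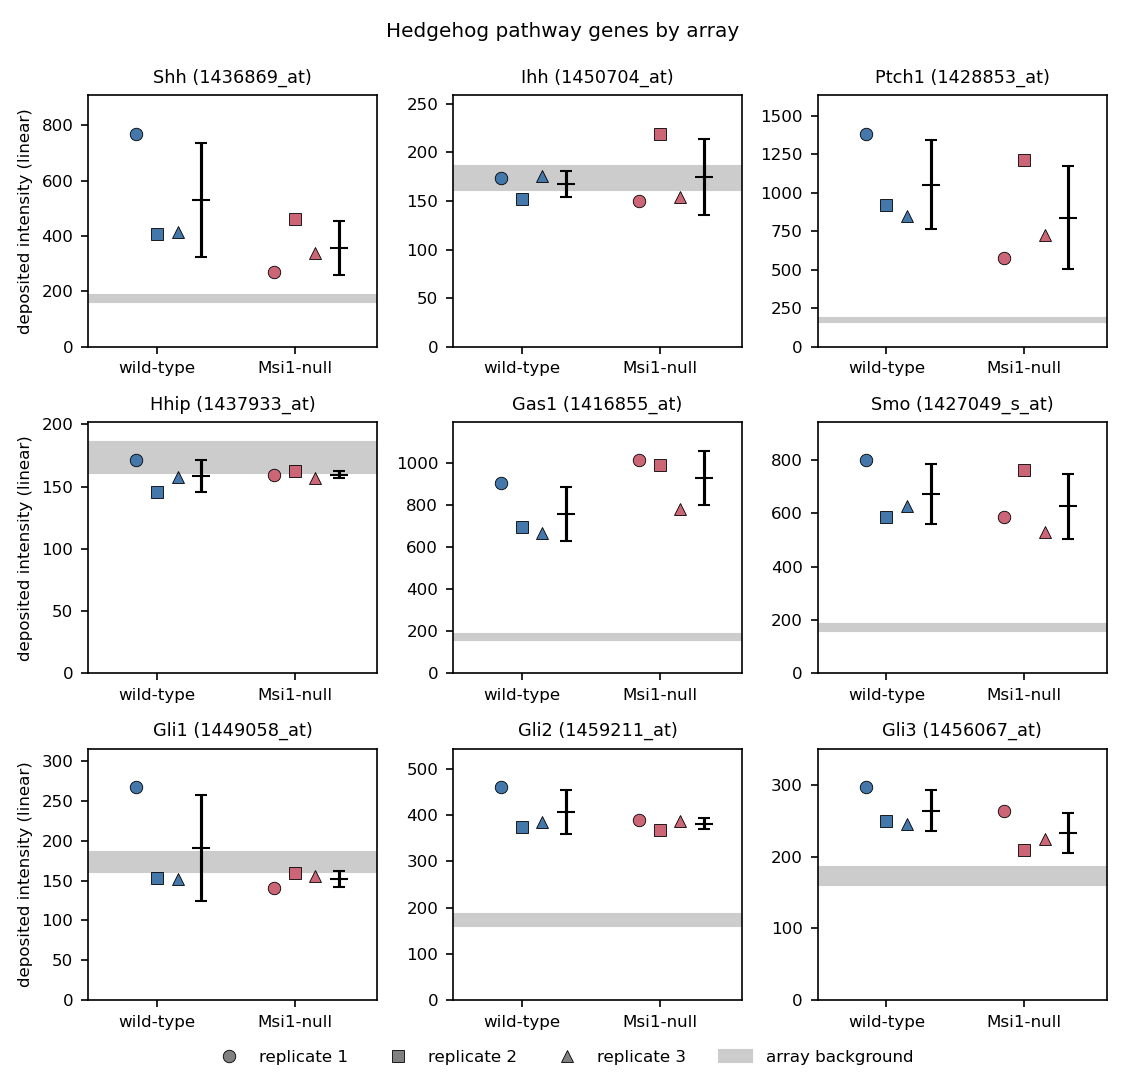
Deposited linear intensity (y axis, from 0) of the 9 genes at the probe set of highest mean, by genotype (x axis), with 1 point per array, marked by replicate number, and the mean with its SD (n = 3) beside them. The grey band is the range of array background, 160.8 to 186. Wild-type replicate 1 is the highest point for 7 of the 9 genes, and the genotypes overlap for all 9.

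The ligand genes come first. Shh encodes Sonic hedgehog, the ligand associated with pancreatic cancer. Its probe set 1436869_at read 770.1, 407 and 415 in wild-type replicates 1, 2 and 3, and 270.0, 463 and 337 in Msi1-null replicates 1, 2 and 3. The groups overlapped, since Msi1-null replicate 2 lay above wild-type replicates 2 and 3. Mean intensity was 530.5 ± 208 for wild-type and 357 ± 98.0 for Msi1-null (SD, n = 3). On the log2 scale the difference was -0.54 ± 0.29 (SE, 95% interval -1.21 to 0.13). The exact two-sided permutation p was 0.3, where 0.1 is the smallest that 20 assignments of 3 and 3 arrays allow, and the adjusted p was 0.9997 (limma). Wild-type replicate 1 was 1.66 times the next array, and without it the log2 difference was -0.24. The second Shh probe set, 1427571_at, read between 101 and 119, below background in every array.

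Ihh encodes Indian hedgehog, a related ligand of cartilage and gut epithelium. Its only probe set read 174, 152 and 176 in wild-type replicates 1, 2 and 3 and 149.97, 219 and 154 in Msi1-null replicates 1, 2 and 3. These readings lay close to background and exceeded it in 3 of 6 arrays. The log2 difference was 0.04 ± 0.15 (SE, 95% interval -0.30 to 0.39). The difference turned negative without Msi1-null replicate 2, at -0.13, and without wild-type replicate 2, at -0.03.

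Ptch1, the Hedgehog receptor and itself a target of the pathway, varied in an order close to that of Shh. Probe set 1428853_at read 1382, 923 and 849.5 in wild-type replicates 1, 2 and 3 and 576, 1212 and 728 in Msi1-null replicates 1, 2 and 3. The highest array was wild-type replicate 1, followed by Msi1-null replicate 2, and the lowest was Msi1-null replicate 1, as for Shh. Mean intensity was 1052 ± 289 for wild-type and 838 ± 332 for Msi1-null (SD, n = 3). The difference was -0.36 ± 0.30 on the log2 scale (SE, 95% interval -1.06 to 0.33, exact two-sided permutation p = 0.4). Spread within each genotype was thus larger than the difference between them. Leaving out Msi1-null replicate 2 gave -0.67, and leaving out wild-type replicate 1 gave -0.15. The other Ptch1 probe sets, 1439663_at and 1450824_at, read between 109 and 132, below background in all arrays, and differed by -0.03 and 0.05 on the log2 scale.

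Hhip encodes a membrane protein that binds Hedgehog ligands and limits their range. Its brightest probe set, 1437933_at, read 171, 145 and 158 in wild-type replicates 1, 2 and 3 and 159, 162 and 157 in Msi1-null replicates 1, 2 and 3. Only 2 of these 6 readings exceeded background. The log2 difference was 0.01 ± 0.07 (SE, 95% interval -0.15 to 0.18), and the other 3 Hhip probe sets, which read between 70.3 and 107, were never above background. With readings at background, a change of this transcript may be compressed or missed.

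The start regions of these ligand-binding feedback genes are shown because Ptch1 and Hhip are textbook Gli targets. The 2 promoters below run from 250 bases before to 50 bases after the annotated start, in RefSeq on GRCm38.p6, each 5′ to 3′ on the gene's own strand. Ptch1 lies at chr13:63565686-63565985 (minus strand) and Hhip at chr8:80057959-80058258 (minus strand). Capitals mark CpG dinucleotides.
Ptch1: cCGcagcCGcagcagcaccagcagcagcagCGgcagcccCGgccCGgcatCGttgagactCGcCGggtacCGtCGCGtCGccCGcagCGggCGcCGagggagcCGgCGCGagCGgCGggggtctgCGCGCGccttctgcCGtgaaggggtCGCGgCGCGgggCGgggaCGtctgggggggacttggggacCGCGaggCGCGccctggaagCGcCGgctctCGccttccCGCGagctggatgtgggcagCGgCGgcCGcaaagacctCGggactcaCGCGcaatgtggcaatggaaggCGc
Hhip: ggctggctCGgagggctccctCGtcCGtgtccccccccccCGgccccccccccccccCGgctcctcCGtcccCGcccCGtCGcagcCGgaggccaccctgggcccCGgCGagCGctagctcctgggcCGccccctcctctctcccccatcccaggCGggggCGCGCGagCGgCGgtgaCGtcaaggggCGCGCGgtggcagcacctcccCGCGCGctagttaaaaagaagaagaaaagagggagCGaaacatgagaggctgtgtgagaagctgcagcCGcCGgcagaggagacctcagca

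The Ptch1 window holds 47 CpGs at 76.3% GC and the Hhip window 30 CpGs at 73.7% GC. Of the 9 genes 7 matched an entry of the RefSeq promoter table, all but Shh and Gli1. All 7 windows had more CpGs than the median of 7 over 32851 promoters, with between 17 and 47, and a GC share of 62.3% to 76.3% against a median of 52.7%. The 9-base Gli consensus motif TGGGTGGTC, searched on both strands (GACCACCCA on the other), had no exact match in the 7 windows, where 0.253% of all 32851 promoters held one. The closest stretch had 2 mismatches in 4 of the 7 windows and 3 mismatches in the other 3, among them Ptch1, and 58.3% of all promoters held a stretch with at most 2 mismatches. These letters may lie outside a window of this size. By position, Ptch1, Gas1 and Gli3 are all annotated on chromosome 13, Ihh and Gli2 on chromosome 1, Shh on chromosome 5, Smo on 6, Hhip on 8 and Gli1 on 10.

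Gas1 encodes a membrane-anchored coreceptor that helps present Hedgehog ligand to Ptch1, and it is known as a gene of fibroblasts in growth arrest. It was the member with the largest positive difference. Probe set 1416855_at read 903, 694 and 669 in wild-type replicates 1, 2 and 3 and 1013, 991 and 781.5 in Msi1-null replicates 1, 2 and 3. The 2 highest readings were Msi1-null arrays and the 2 lowest wild-type arrays, while wild-type replicate 1 lay above Msi1-null replicate 3. Mean intensity was 755 ± 128 for wild-type and 928 ± 128 for Msi1-null (SD, n = 3). The difference was 0.30 ± 0.16 on the log2 scale (SE, 95% interval -0.08 to 0.68, exact two-sided permutation p = 0.2, adjusted p = 0.9997 with limma). A second probe set, 1448494_at, read 415, 299 and 289 in wild-type and 421, 454 and 347 in Msi1-null replicates 1, 2 and 3. Its difference was 0.30 ± 0.17 (SE), so the 2 probe sets above background gave nearly the same value. The third, 1456322_at, read between 110.4 and 121, below background. Without wild-type replicate 1 the difference at 1416855_at was 0.44, and it was 0.22 without wild-type replicate 3.

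Smo, the seven-pass membrane protein that carries the signal into the cell, is read by 3 probe sets that did not point the same way. The brightest, 1427049_s_at, read 799.7, 587 and 629 in wild-type replicates 1, 2 and 3 and 585, 763 and 531 in Msi1-null replicates 1, 2 and 3, a log2 difference of -0.11 ± 0.18 (SE, 95% interval -0.52 to 0.31). Wild-type replicate 1 and Msi1-null replicate 2 were again the highest arrays. Probe set 1427048_at read 487, 319 and 356 in the wild-type replicates and 482, 467 and 311 in the Msi1-null ones, differing by 0.11 ± 0.22 on the log2 scale (SE). The 2 probe sets disagreed mainly in Msi1-null replicate 1, which was among the lower arrays at the first and nearly the highest at the second. The third, 1442215_at, lay below background.

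Gli1, the activator and the most direct readout of the pathway, stood out in 1 array. Its only probe set read 268, 153 and 152 in wild-type replicates 1, 2 and 3 and 141, 159 and 156 in Msi1-null replicates 1, 2 and 3. Wild-type replicate 1 was the only array above background, and the other 5 readings lay within 141 to 159. The log2 difference was -0.28 ± 0.21 (SE, 95% interval -0.76 to 0.21, exact two-sided permutation p = 0.6), and without wild-type replicate 1 it was -0.01.

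Gli2, the main activator on ligand, varied less over the 6 arrays than Gli1 and Gli3 did at their brightest probe sets, with an SD of 0.12 on the log2 scale against 0.34 and 0.18. Probe set 1459211_at read 461, 373 and 385 in wild-type replicates 1, 2 and 3 and 390.1, 368 and 386 in Msi1-null replicates 1, 2 and 3. Apart from wild-type replicate 1, all readings lay within 368 to 390.1. The log2 difference was -0.09 ± 0.11 (SE, 95% interval -0.34 to 0.17), and 0.01 without that array. The second Gli2 probe set, 1446086_s_at, differed by -0.07 ± 0.08 (SE).

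Gli3, the main repressor of the pathway in most tissues, was above background at all 3 of its probe sets. The brightest, 1456067_at, read 297, 249.7 and 245 in wild-type and 263, 209 and 224.5 in Msi1-null replicates 1, 2 and 3. Msi1-null replicates 2 and 3 were the lowest, and Msi1-null replicate 1 lay above wild-type replicates 2 and 3. The log2 difference was -0.18 ± 0.12 (SE, 95% interval -0.46 to 0.09, exact two-sided permutation p = 0.3), and -0.10 without wild-type replicate 1. The other probe sets differed by -0.07 ± 0.13 at 1455154_at and by 0.11 ± 0.08 at 1450525_at (SE), so the direction depended on the probe set.

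**Figure D2:**
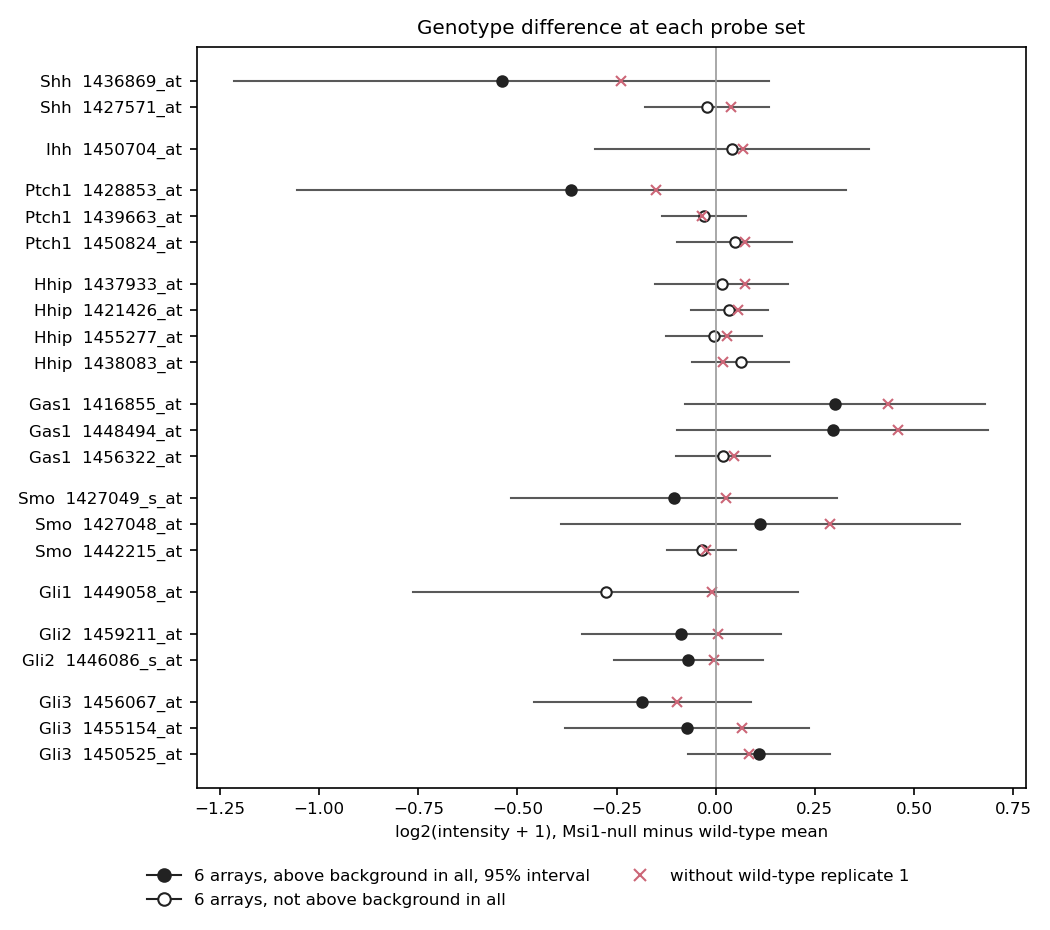
Log2 difference in intensity, Msi1-null minus wild-type mean (x axis), at each of the 22 probe sets (y axis), with limma's 95% interval as a line. Filled points were above background in all 6 arrays and crosses leave out wild-type replicate 1. All 22 intervals hold 0, and with each gene read at its brightest probe set, Shh, Ptch1 and Gli1 move towards 0 without that array while Gas1 moves away from it.

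At the probe set of highest mean, wild-type replicate 1 was the highest array for 7 of the 9 genes and the lowest for 0. The 7 were Shh, Ptch1, Hhip, Smo, Gli1, Gli2 and Gli3. Of these, Hhip read close to background, at 171 in wild-type replicate 1 against 162 in the next array, and exceeded background in 2 of 6 arrays. Gli1 exceeded it in wild-type replicate 1 alone. Over all 18201 genes wild-type replicate 1 was the highest array for 22.6% and the lowest for 17.9%. The order depended on the probe set. At Gli3 1450525_at, above background in all 6 arrays, wild-type replicate 1 was the lowest, at 185 against 193 to 223 in the others. At the probe sets of highest mean, the log2 deviation of wild-type replicate 1 from the mean of the 6 arrays was 0.87 for Shh, 0.68 for Gli1 and 0.61 for Ptch1. Msi1-null replicate 1 was the lowest array for 4 of the 9 genes and for 25.7% of all genes. It deviated by -0.64 for Shh and by -0.65 for Ptch1, but by 0.29 for Gas1. Without wild-type replicate 1 the median log2 difference of the 9 genes was 0.01, with 4 lower and 5 higher in Msi1-null arrays. The array was labelled like the other wild-type samples, and no batch is given in the labels.

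**Figure D3:**
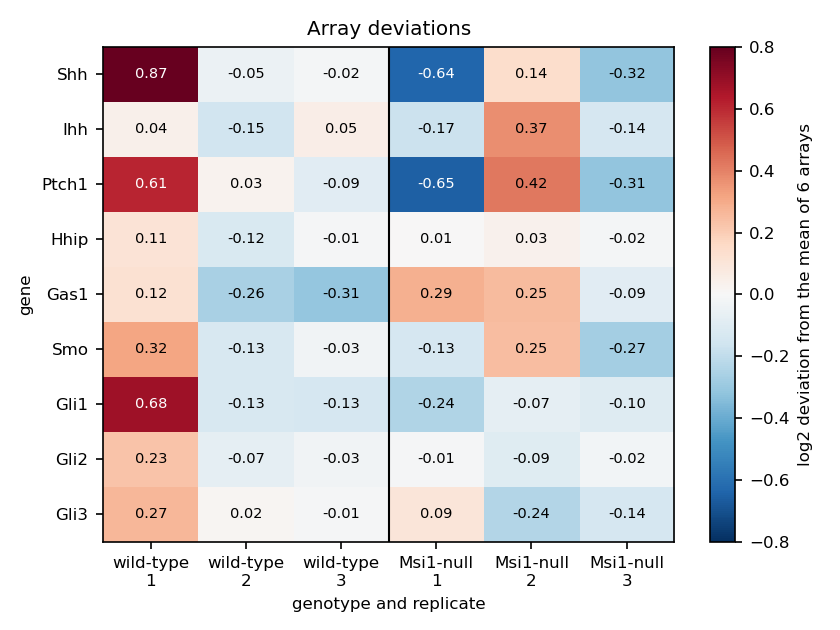
Log2 deviation of each array (columns, by genotype and replicate) from the mean of the 6 arrays, for each gene (rows) at its probe set of highest mean. Colour runs from -0.8 (blue) to 0.8 (red), and wild-type replicate 1 is positive for all 9 genes, most for Shh at 0.87.

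Shh had the largest SD over the 6 arrays among the members above background, 0.51 on the log2 scale. Of 11108 genes above background in all arrays, 3.02% had a larger SD than Shh and 3.91% a larger SD than Ptch1. Pearson's r of log2 values with Shh over the 6 arrays was 0.94 for Ptch1, 0.91 for Gli1, 0.83 for Smo, 0.69 for Gli2, 0.56 for Hhip, 0.47 for Ihh, 0.41 for Gli3 and 0.01 for Gas1. With wild-type replicate 1 and Msi1-null replicate 1 left out, the arrays farthest from the Shh median, r over the remaining 4 arrays was 0.92 for Ptch1, 0.93 for Smo and 0.79 for Ihh. It was 0.39 for Gas1, 0.30 for Gli1, 0.23 for Hhip, -0.19 for Gli3 and -0.75 for Gli2. These are descriptions over 6 arrays that share 1 normalization, and how many of all genes reach such an r was not counted. Wild-type replicate 1 and Msi1-null replicate 1 also deviated most over all 18201 genes. Their median absolute log2 deviation from the gene's median was 0.0735 and 0.0935, against 0.0418 to 0.0646 in the other arrays. Among 11107 other genes above background in all arrays, the 5 closest to Shh were Pnpla8 (r = 0.998), Polr2b (0.996), Crebrf (0.993), Birc2 (0.989) and Rab2a (0.988). Pnpla8 encodes a phospholipase, Polr2b a subunit of RNA polymerase II, Crebrf a regulator of the CREB3 transcription factors, Birc2 an inhibitor of apoptosis and Rab2a a GTPase of vesicle transport. Their own ranges were narrower, for example 909.7 to 1102 for Pnpla8 and 462 to 860.1 for Crebrf.

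Marker sums of some cell types had their extremes in the same arrays as Shh and Ptch1, in the same or the opposite direction. Over all genes, Msi1-null replicate 1 was the highest array for 25.3% and the lowest for 25.7%. For wild-type replicate 1 these shares were 22.6% and 17.9%. Neutrophil markers summed highest in Msi1-null replicate 1 and lowest in Msi1-null replicate 3. Adipocyte markers summed highest in wild-type replicate 2 and erythroid markers in wild-type replicate 3. The summed intensity of 8 smooth muscle and pericyte markers was lowest in wild-type replicate 1, at 9016, and in Msi1-null replicate 2, at 10465, the 2 arrays highest in Shh and Ptch1, and it was highest in Msi1-null replicate 1, at 23826, the array lowest in both. The other arrays lay between 13124 and 18877. The summed intensity of 8 endothelial markers ran from 4364.5 to 5903 in wild-type and from 4988 to 7199 in Msi1-null arrays, again lowest in wild-type replicate 1 and highest in Msi1-null replicate 1. Of these 8 markers, 7 had higher means in Msi1-null arrays, with a median log2 difference of 0.28, and 0.15 without wild-type replicate 1. Groups were without overlap at 2 of the 8, against 4.01% of all genes in this direction. An unadjusted p under 0.05 (limma) was reached by 1 of the 8, against 3.45% of all genes. For 7 islet cell markers, the sum was highest in Msi1-null replicate 2, at 13940, and wild-type replicate 1, at 8769, and lowest in Msi1-null replicate 1, at 5458. The sum of 4 Schwann cell markers was highest in wild-type replicate 1, at 2113, and Msi1-null replicate 2, at 1847. It was lowest in Msi1-null replicate 1, at 1515. The sums of 9 duct-type epithelial markers ran from 53529 to 61169 in wild-type and from 50521 to 69715 in Msi1-null arrays, with Msi1-null replicate 1 the lowest and Msi1-null replicate 3 the highest array. The summed intensity of 8 macrophage markers was lowest in Msi1-null replicate 2, at 27682, and wild-type replicate 1, at 33653, and highest in Msi1-null replicate 1, at 50770. For 10 fibroblast markers the sum was 64651 in Msi1-null replicate 1, the highest array, and 43620 in Msi1-null replicate 2, the lowest, with the wild-type arrays between 52681 and 54323. The part of these markers in the Hedgehog values was not tested. The sums of 8 acinar markers, between 33380 and 52308 in wild-type and between 10623 and 31600 in Msi1-null arrays, did not overlap, and all 8 markers had lower means in Msi1-null arrays. For the single markers, the groups were without overlap at 1 of 8, against 4.28% of all genes in this direction. An unadjusted p under 0.05 (limma) was reached by 7 of the 8, against 3.45% of all genes. The 8 markers read the same cell type, so they are not 8 independent results. Their list was also chosen with earlier results of these data known. The median log2 difference of the 8 acinar markers was -1.51, and -1.62 without wild-type replicate 1. Wild-type replicate 1 was also the lowest of the 6 arrays for all 7 T and NK cell markers and all 5 measured B cell markers. All of these markers had higher means in Msi1-null arrays. The T and NK sums, 1109 to 1318 in wild-type and 1332 to 1711 in Msi1-null arrays, did not overlap, while the B cell sums did. Single markers were without overlap at 2 of 7 and 0 of 5, against 4.01% of all genes in this direction. An unadjusted p under 0.05 (limma) was reached by 3 of the 7 and 1 of the 5, against 3.45% of all genes. Only 3 of the 7 and 0 of the 5 read above background in every array.

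The remaining pathway genes were described from 5 lists, and none of their members passed the test in either direction. For ligand release, which covers the third ligand Dhh and the proteins that acylate, export or shed ligands, 4 of 9 measured genes had higher and 5 lower means in Msi1-null arrays, with a median log2 difference of -0.02. Adam17, a protease that sheds surface proteins, read 777, 905 and 869 in wild-type and 1127, 954 and 1003 in Msi1-null replicates 1, 2 and 3. The groups did not overlap, as was the case for 4.01% of all genes in this direction, and the log2 difference was 0.27 ± 0.12 (SE, exact two-sided permutation p = 0.1). Disp2, a relative of the ligand exporter Disp1, differed by 0.10 ± 0.07, and the related protease Adam10 by -0.07 ± 0.09 (SE). Disp2 read close to background and exceeded it in 2 of 6 arrays, both Msi1-null.

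Of 7 coreceptors and other receptors measured, 2 had higher and 5 lower means, with a median of -0.05. Gpc4, a glypican of the cell surface, read 964, 920.5 and 827 in wild-type and 715, 772 and 607 in Msi1-null replicates 1, 2 and 3, without overlap, as was the case for 4.28% of all genes in this direction. Its log2 difference was -0.38 ± 0.13 (SE, exact two-sided permutation p = 0.1, adjusted p = 0.9997 with limma), and -0.33 without wild-type replicate 1. Gpc3, a glypican known to compete with Ptch1 for ligand, differed by -0.23 ± 0.15 and Cdon, a coreceptor that works beside Gas1, by -0.18 ± 0.14 (SE). Without wild-type replicate 1 these became -0.09 and -0.04.

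For the cytoplasmic regulators of Gli, the kinases, ubiquitin ligases and scaffold proteins that control its processing, 8 of 21 measured genes had higher and 13 lower means. Their differences ran from -0.20 to 0.09, with a median of -0.01. Without wild-type replicate 1, 10 of the 21 were lower, with a median of 0.0003. Cul3, the ubiquitin ligase scaffold that works with Spop, differed by -0.20 ± 0.13 (-0.10 without that array), Gpr161, a ciliary receptor that restrains the pathway, by -0.12 ± 0.07, and the casein kinase Csnk1d by -0.11 ± 0.10 (SE). Gpr161 read close to background and exceeded it in 4 of 6 arrays. Gnas and Csnk1a1, the brightest of the list, differed by 0.09 ± 0.10 and 0.05 ± 0.08 (SE).

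Genes of the primary cilium, the organelle in which Smo and the Gli proteins meet, had lower means in Msi1-null arrays for 11 of 13 measured members, with a median log2 difference of -0.10. Ofd1, a basal body protein, differed by -0.23 ± 0.11, Kif3a, a motor subunit of intraflagellar transport, by -0.19 ± 0.11, Bbs4, of the BBSome that moves ciliary receptors, by -0.17 ± 0.11 and Tmem107, of the transition zone, by 0.14 ± 0.18 (SE). Wild-type replicate 1 was the highest array for 10 of the 13, and without it 9 of 13 were lower with a median of -0.03, Kif3a at -0.11 and Bbs4 at -0.07.

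Genes known as Hedgehog targets in other tissues did not share a direction: 12 of 20 had higher and 8 lower means, with a median of 0.02, and without wild-type replicate 1 it was 10 and 10. Igf2, a growth factor, read 2509, 449 and 797 in wild-type and 314, 486 and 277 in Msi1-null replicates 1, 2 and 3. It was thus highest in wild-type replicate 1, as Shh, Ptch1 and Gli1 were, by 3.15 times over the next array. Its log2 difference was -1.47 ± 0.57 (SE, exact two-sided permutation p = 0.2, adjusted p = 0.9997 with limma), and -0.78 without that array. Mycn, a proto-oncogene, differed by -0.34 ± 0.16 (-0.21 without it) and Bmp4, a growth factor, by -0.34 ± 0.18 (SE). Sfrp1, a secreted Wnt antagonist, ranged from 1301 to 5715 in wild-type and from 4092 to 6534 in Msi1-null arrays and differed by 0.88 ± 0.48, and Ccnd1, cyclin D1, by 0.17 ± 0.19 (SE), or by 0.94 and 0.05 without wild-type replicate 1.

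**Figure D4:**
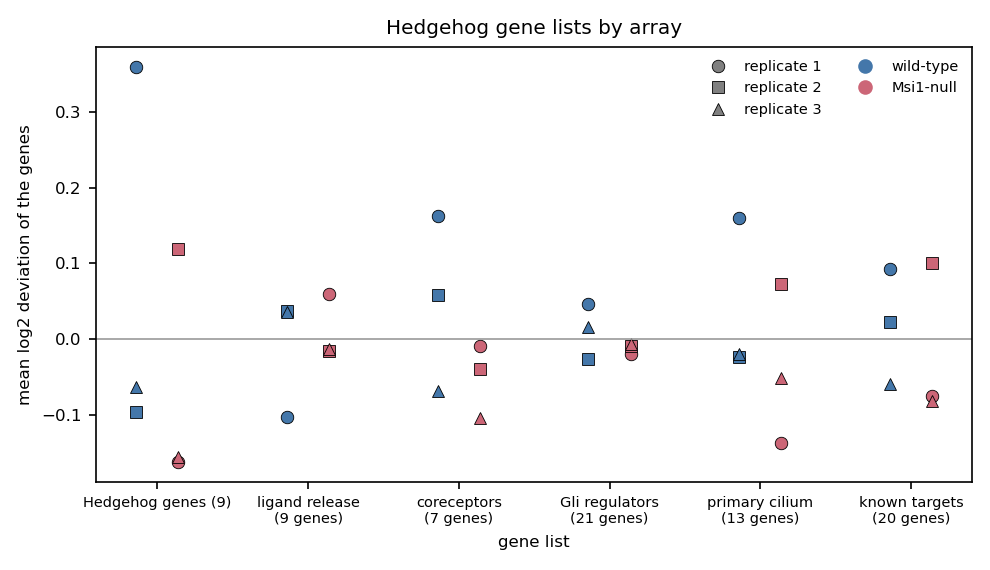
Mean log2 deviation of the genes of each list from their means over the 6 arrays (y axis), with 1 point per array, coloured by genotype and marked by replicate number. Wild-type replicate 1 has the highest point for the 9 Hedgehog genes (0.36), the coreceptors (0.16), the regulators of Gli (0.05) and the primary cilium (0.16), and the lowest for ligand release (-0.10).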

How the data were processed

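Total RNA of 6 mouse samples (3 per genotype, grouped and numbered by their titles) was labelled (biotin, 6 ug) and hybridised to Affymetrix arrays, per the labels' protocols. The authors deposited 1 table of probe set intensity, made with GCRMA per the submitters' processing notes; its version and settings are not given in the sources used here. The values are linear, with a lowest value per array between 51.2 and 59.9. No source used here states whether GCRMA was followed by an added offset or a rescaling. A constant added to every value would make all log2 differences printed here smaller, most of all for dim transcripts. The number of arrays limits the precision.

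Of 45101 probe sets, 64 controls were left out. The platform annotation gave 1 symbol to 34957, several to 920 and none to 9160, and symbols were updated by Entrez identifier from RefSeq (GRCm38.p6) for 34754. Values were analysed as log2(intensity + 1). The added 1 understates changes of dim genes only slightly, since the lowest value was 51.2. With 16 added in place of 1, the log2 difference of Gli1 was -0.26 against -0.28. A linear model of genotype alone was fitted over all probe sets with limma 3.58.1 in R 4.3.3 (eBayes with trend), with Benjamini-Hochberg adjustment at 0.05, and checked on simulated data. Alternatives covered the filter, prior variance, normalization, array weights, pseudocount, probe set choice, threshold, replicate block and each array left out.

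Other pathway genes named are, per list, the 3 of smallest unadjusted p and the 2 brightest. Members and lists were chosen with earlier results of these data known. The genes most like Shh are the 5 with the highest r. Ighm was named after its values were seen.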

Additional observations from a re-analysis of the deposited data

How the results depend on the processing

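No Hedgehog gene passed an adjusted p of 0.05 in any of the 18 alternatives, or of 0.1 in the fit as reported (limma), and the median difference of the 9 genes ran from -0.20 to 0.0069 over the fits that left out 1 array each and from -0.11 to -0.04 over the others. The count of probe sets past the threshold ran from 0 to 1 when 1 array was left out; the 1 was Ighm, an immunoglobulin gene, at 1.89 without Msi1-null replicate 1 (0.82 with all arrays). The filters, the prior variance and the replicate block leave each gene's difference as it was by construction. With each array left out in turn, Smo ran from -0.26 to 0.027 (positive without wild-type replicate 1 and without Msi1-null replicate 3), Gli2 from -0.14 to 0.0069 (positive without wild-type replicate 1), Ihh from -0.13 to 0.14 (negative without wild-type replicate 2 and without Msi1-null replicate 2) and Hhip from -0.044 to 0.073 (negative without wild-type replicate 2). Smo was 0.11 with the probe set of largest SD. The cause was not tested, apart from the array or probe set named. The filter at a mean log2 of 8 left 5 of the 9 genes. Deviations of same-numbered arrays correlated at 0.10, -0.14 and 0.29, so the numbers are not known to pair the samples. With the replicate block 0 probe sets and 0 members passed, and 2120 probe sets had an unadjusted p under 0.05 against 1355 without it. Among the 9 genes 2 had one under the block (Gli3, 0.0445, and Gas1, 0.0461, both with an adjusted p of 0.98 in limma) against 0 in the fit as reported. Leaving out an array also gave unadjusted limma p-values under 0.05. These were Gas1 at 0.0263 without wild-type replicate 1 and 0.0417 without Msi1-null replicate 3, and Gli3 at 0.0357 without Msi1-null replicate 1. Without Msi1-null replicate 2, Shh reached 0.0399 and Ptch1 0.0267. The smallest adjusted p among these was 0.81, and the fits without wild-type replicate 2 or 3 gave 0. Readings at background limit what Ihh, Hhip and Gli1 can show.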
